A study of Mus musculus with 32 samples.

Results

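The stomach and the upper small intestine of newborn mice were compared here, gene by gene, from total RNA in 8 of the 32 libraries of a study of the percc1-/- mouse. The members were chosen by their labels: 4 libraries of whole stomach and 4 of the top part of the intestine. Each region gave 1 percc1-/- and 1 wild-type library at postnatal day 1 (P1) and at postnatal day 5 (P5). The mice were of a mixed 129SvEv and C57BL/6 background. In percc1-/- animals, 1512 bp of chromosome 17 (25175032 to 25176543, mm9) had been replaced by a loxP site in embryonic stem cells, so the deletion is present in all cells. Wild-type animals did not carry the deletion, and no other treatment is named. It is not stated how many animals went into a library, or whether the regions of a stage and genotype came from the same animals. With 1 library per region, stage and genotype, p-values measure the spread left across libraries after the average effects of stage and genotype. Technical spread, spread between animals, and stage or genotype effects that differ between the regions cannot be told apart in it. The gut contents had been squeezed out before the tissue was frozen. A whole stomach at these ages holds forestomach and glandular stomach together. No usable record carried the symbol Percc1, so the genotype labels were not checked by it.

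The mouse stomach is lined by a stratified squamous epithelium in its upper part, the forestomach, and by glands in the rest, with acid-secreting parietal cells, pepsinogen-making chief cells and mucous cells. The small intestine is lined by absorptive enterocytes on villi, with goblet, Paneth and endocrine cells. The boundary between them is set during development by transcription factors: Sox2 and Barx1 mark the stomach side, and Cdx2, a caudal-type homeobox factor, the intestinal side. In the suckling mouse the enterocytes take up milk fat, lactose and whole proteins.

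Levels are given in FPKM, a measure of transcript abundance that corrects for transcript length and library size, after rescaling of the libraries. Where 4 values are listed, their order is P1 percc1-/-, P1 wild type, P5 percc1-/- and P5 wild type. Differences are stomach minus top intestine on the scale log2(FPKM + 1), so a negative difference is a higher level in the top intestine. They are given ± SE from limma with stage and genotype as covariates, over 4 libraries a region. A gene was called where its adjusted p was under 0.05. The pseudocount makes a difference understate the fold of genes at low levels. Gene lists are described by counts among the members whose mean over the 8 libraries was at least 1 FPKM. A member high in 1 region only could pass through that region, so these counts describe the list and test nothing.

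Sequencing depth is unknown, since the tables hold no counts, and precision was read from the deposited bounds on FPKM. Their median distance from the value was 25.9 to 29.8 percent for genes of 1 to 2 FPKM and 7.97 to 10.04 percent for genes of 10 to 20 FPKM. Records with a gene symbol held 18.4 to 29.4 percent of the FPKM sum of a library, and the highest gene of a library had 88.6 to 185 FPKM. An exact 0 is not read as absence: 4645 genes averaged 10 FPKM or more, and 29 of them had a 0 in some library.

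A pair of libraries stood apart from the other 6 in the lists below, though those 6 were not alike either. In the P1 percc1-/- stomach library, 23 parietal and chief cell genes summed to 229.7 FPKM, against 510.3 to 571 in the other stomach libraries. In the P1 percc1-/- top intestine library the same genes summed to 317 FPKM, against 106 to 117 in the other 3. The 24 gastric mucous cell genes summed to 211 FPKM in that stomach library and 466 to 558 in the others, and to 363 FPKM in that intestinal library and 53.7 to 190.5 in the others. The 26 brush border genes, of enterocytes, summed to 214 FPKM in the P1 percc1-/- stomach library against 102 to 113 in the rest. The 37 squamous genes were the highest in the P1 percc1-/- library of both regions: they summed to 1016 FPKM in that stomach library and to 768 to 889 in the others, and to 156 FPKM in that intestinal library and to 97.6 to 109 in the others. Both are the only P1 percc1-/- libraries of their region, and the cause of these values was not tested. Whether tissue or RNA of the regions was mixed in them was not tested either, so a value of these 2 libraries may not be that of its labelled region alone. The differences below are therefore also given without these 2 libraries where that bears on a call. The libraries were set apart by the sums of these same lists. A recount of such a list without them is a description and no added support. A fit without them also has fewer residual degrees of freedom than the full fit. It still holds the P5 percc1-/- libraries. Of these, the top intestine had the gastric mucous sum of 53.7 FPKM, against 190 and 175 in the wild-type ones. The stomach had a liver sum of 398 FPKM, given below.

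**Figure D1:**
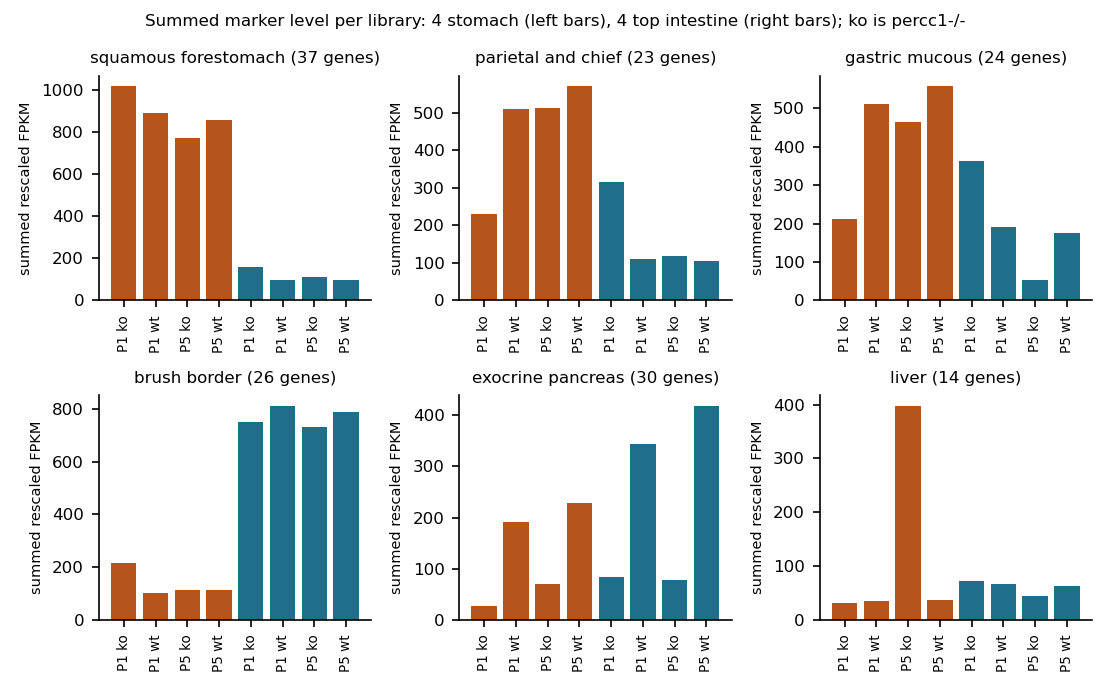
Summed rescaled FPKM of 6 marker lists in each of the 8 libraries, with 4 stomach bars on the left of each panel and 4 top intestine bars on the right (1 library a bar, no error bars; ko is percc1-/-). Parietal and chief cell genes sum to 229.7 FPKM in the P1 percc1-/- stomach bar and 317 in the P1 percc1-/- top intestine bar, and liver genes to 398 FPKM in the P5 percc1-/- stomach bar.

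Liver and pancreas genes also varied between libraries. The 14 liver genes summed to 398 FPKM in the P5 percc1-/- stomach library and to 31.4 to 37.8 in the other stomach libraries. The 30 exocrine pancreas genes summed to 192 and 228 FPKM in the wild-type stomach libraries and to 27.8 and 70.7 in the percc1-/- ones. In the top intestine these sums were 345 and 419 FPKM in wild type and 83.4 and 77.1 in percc1-/-. The part of neighbouring organs in the results below was not tested, and their sums are given beside the genes they touch.

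Of 13342 genes tested, 2375 were higher in stomach (17.8 percent) and 2205 were higher in top intestine (16.5 percent), together 34.3 percent. The median difference over all genes was 0.02. All 4 stomach libraries lay above all 4 intestinal ones for 2413 genes (18.1 percent), and the reverse held for 2227 (16.7 percent). Differences of at least 1 on the log2 scale were called for 904 genes higher in stomach and 855 higher in top intestine, and of at least 3 for 128 and 110. Genes of squamous epithelium led the stomach side, and genes of enterocyte transport and digestion led the intestinal side.

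**Figure D2:**
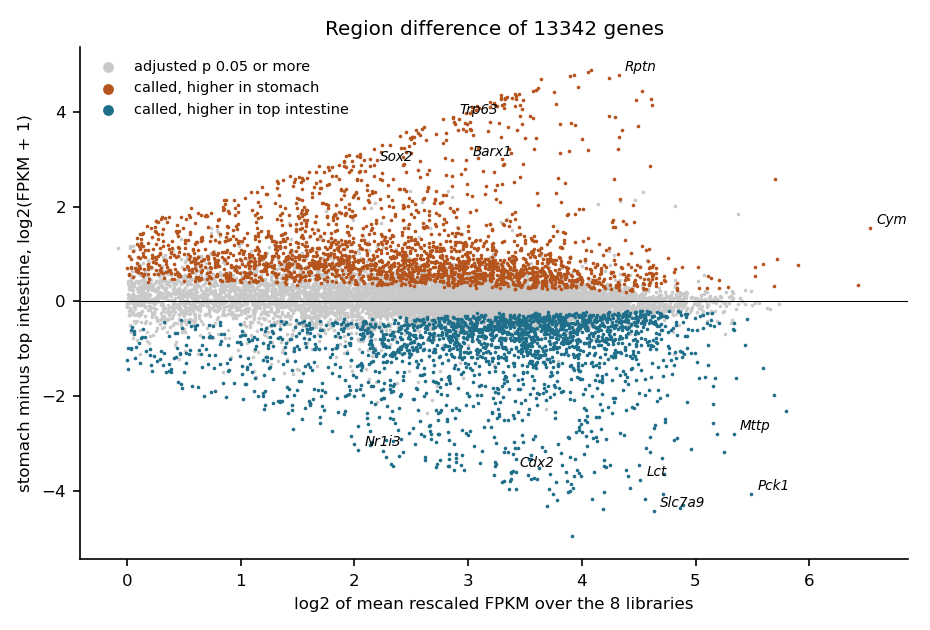
Difference between stomach and top intestine (vertical axis, log2(FPKM + 1)) against mean level over the 8 libraries (horizontal axis, log2 of rescaled FPKM) for 13342 genes, each a point. The 2375 genes called higher in stomach are orange, the 2205 called higher in top intestine are blue, and the rest are grey.

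The squamous genes of the forestomach were the group with the largest differences toward stomach. Of 44 listed genes, 36 passed the filter on low levels, 35 were higher in stomach and 0 in top intestine, with a median difference of 3.76 against 0.02 over all genes. These are keratins, desmosome parts and proteins of the cornified envelope, the tough outer shell of squamous cells. Rptn, which codes for repetin of the cornified envelope and lies on chromosome 3, 93197621 to 93203364 (mm9, plus strand, protein-coding), had 41.4, 45.05, 31.4 and 40.5 FPKM in stomach. In top intestine it had 0.734, 0.844, 0.125 and 0.283 FPKM, so the lowest stomach library lay far above the highest intestinal one (log2 difference 4.78 ± 0.11, adjusted p = 7.12e-06). Krt1, a keratin of differentiating squamous cells, had 37.3, 37.2, 34.99 and 39.3 FPKM in stomach and 0.859, 0.442, 0.188 and 0.434 in top intestine (log2 difference 4.71 ± 0.14, adjusted p = 8.08e-06). Lgals7, a galectin of stratified epithelia, had 22.2 to 28.4 FPKM against 0 to 0.278 (log2 difference 4.50 ± 0.13, adjusted p = 7.12e-06), and Lypd3, a surface protein of squamous cells, had 19.01 to 29.03 against 0.0781 to 0.24 (log2 difference 4.46 ± 0.15, adjusted p = 1.01e-05). In bulk tissue, fewer cells of a type and less RNA per cell cannot be told apart, here and in all groups below.

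The basal layer was represented as well. Trp63, the p63 factor that maintains basal squamous cells, on chromosome 16, 25683849 to 25892188 (plus strand), had 18.4, 11.7, 17.4 and 10.7 FPKM in stomach and 0.0591, 0.0363, 0.0375 and 0.0243 in top intestine (log2 difference 3.87 ± 0.16, adjusted p = 2.1e-05). Krt14, the keratin of basal cells, was singled out after its values were seen and had 32.4, 21.3, 22.5 and 14.7 FPKM against 0.816, 0.498, 0.537 and 0.253 (log2 difference 3.92 ± 0.12, adjusted p = 8.08e-06). The P1 percc1-/- library was the highest of the stomach libraries for both genes, and the regions did not overlap. Among the 15 largest differences toward stomach whose regions did not overlap, further squamous genes were Spink5, an inhibitor of skin proteases, Lor, the envelope protein loricrin, and Krt4, a keratin of internal squamous linings (differences 4.78, 4.42 and 4.43). Lyg1, a lysozyme of the g type, had the largest of the 15 (4.88, 29.9 to 37.97 FPKM against 0 to 0.558). Also among the 15 were Serpinb12, a serine protease inhibitor, Crct1, a gene of the epidermal differentiation cluster, Il1f6, an interleukin of the IL-1 family, and Fetub, a fetuin (differences 4.76, 4.53, 4.37 and 4.43). Jup, plakoglobin, which all epithelia use, was the 1 member not called (18.5 to 31.5 FPKM in stomach and 13.6 to 24.7 in top intestine, log2 difference 0.29 ± 0.19, adjusted p = 0.286). The count was 33 and the median 3.68 without the P1 percc1-/- libraries.

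Among transcription factors of the stomach, Sox2 and Barx1 were higher in every stomach library than in any intestinal one. Of 20 listed factors, 15 passed the filter on low levels, 8 were higher in stomach and 1 was higher in top intestine, with a median of 1.37. Sox2, on chromosome 3, 34548927 to 34551383 (plus strand), had 9.10, 8.45, 8.57 and 8.48 FPKM in stomach and 0.833, 0.181, 0.187 and 0.159 in top intestine (log2 difference 2.88 ± 0.15, adjusted p = 7.5e-05). Its stomach libraries lay close together, and the P1 percc1-/- library was the highest of the intestinal ones. Barx1, a homeobox factor of the stomach mesenchyme, on chromosome 13, 48758367 to 48761876 (plus strand), had 10.998, 14.9, 13.3 and 17.99 FPKM against 4.96, 0.608, 0 and 0.411 (log2 difference 2.98 ± 0.52, adjusted p = 0.00562). Pitx1, a homeobox factor, had 20.97, 18.98, 20.4 and 22.3 FPKM against 4.93, 1.74, 5.12 and 2.88 (log2 difference 2.29 ± 0.20, adjusted p = 0.000483), and Sox21, a relative of Sox2, had 3.20, 4.32, 4.92 and 5.88 against 1.84, 0.117, 0 and 0.0736 (log2 difference 2.02 ± 0.37, adjusted p = 0.00728). The regions overlapped for none of these 4 genes.

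The calls of Isl1, Bhlha15 and Foxq1 depended on single libraries. Isl1, a LIM homeobox factor of the pyloric muscle and endocrine cells, had 2.73, 8.26, 12.6 and 9.96 FPKM in stomach and 4.10, 0.958, 0.25 and 0.563 in top intestine (log2 difference 2.01 ± 0.59, adjusted p = 0.0394). Bhlha15, the Mist1 factor of chief cells, had 1.38, 4.03, 4.30 and 3.68 against 1.58, 0, 0 and 0.717 (log2 difference 1.52 ± 0.42, adjusted p = 0.0328), and Foxq1, a factor of foveolar mucous cells, had 10.5, 17.4, 15.2 and 20.2 against 12.03, 7.97, 8.58 and 8.51 (log2 difference 0.69 ± 0.22, adjusted p = 0.0483). For all 3, a P1 percc1-/- library was the lowest of stomach and the highest of top intestine. Leaving out any 1 of the 6 other libraries ended these calls, with adjusted p = 0.106 to 0.119 for Isl1, 0.0723 to 0.103 for Bhlha15 and 0.107 to 0.143 for Foxq1. Without both P1 percc1-/- libraries the differences were 2.84, 2.08 and 0.98 (adjusted p = 0.00314, 0.00612 and 0.00571).

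The other 6 tested factors of the stomach list were not called. Foxa2, Foxa3 and Esrrg, a nuclear receptor of parietal cells, had differences of 1.21, 0.47 and 1.37 (adjusted p = 0.0826, 0.405 and 0.0915). Six2, a factor of the pyloric mesenchyme, had 0.81 (adjusted p = 0.077), and Nkx6-3, of gastrin cells, had -0.37 (adjusted p = 0.457). Gata4, an endoderm factor active in glandular stomach and in the upper intestine, had 2.52, 10.9, 13.5 and 12.2 FPKM in stomach and 12.4, 16.02, 20.2 and 18.1 in top intestine (log2 difference -0.88 ± 0.34, adjusted p = 0.0897). Its relative Gata5 was the 1 member called higher in top intestine, with 2.09, 6.74, 4.86 and 6.15 FPKM against 12.4, 15.999, 12.8 and 11.7 (log2 difference -1.33 ± 0.25, adjusted p = 0.00785). Without the P1 percc1-/- libraries, Foxa2, Foxa3, Esrrg and Six2 were called higher in stomach (differences 1.86, 1.03, 2.07 and 1.15, adjusted p = 0.00258, 0.0133, 0.00287 and 0.0195). Gata4 was then called higher in top intestine (difference -0.54, adjusted p = 0.00965), and 12 factors were higher in stomach, with a median of 2.07.

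**Figure D3:**
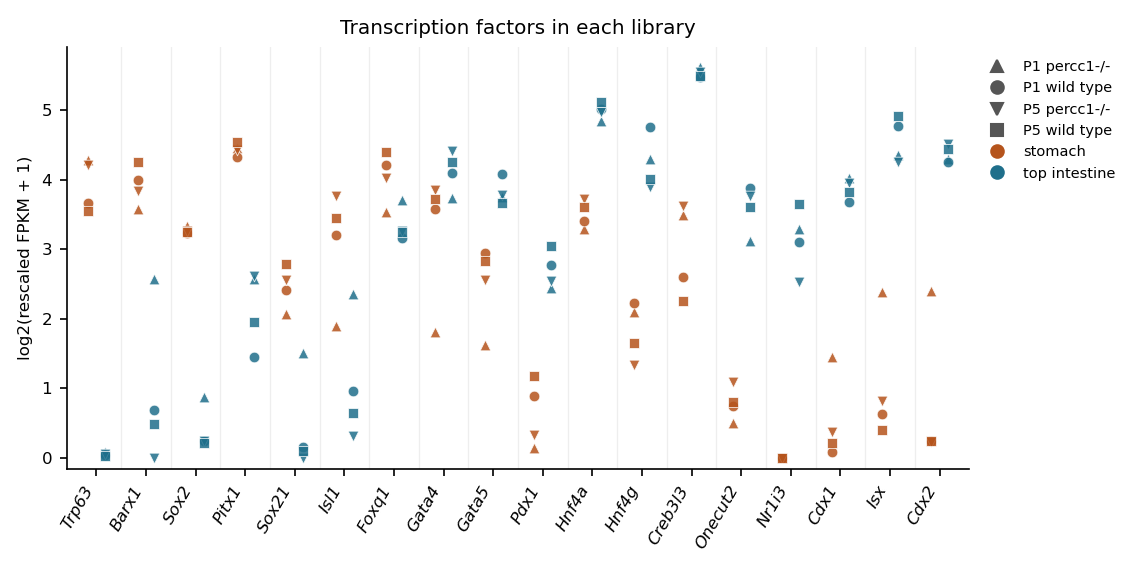
Level of 18 transcription factors, as log2(rescaled FPKM + 1), in each of the 8 libraries (1 point a library; colour gives the region and shape the stage and genotype). The 4 stomach points of Sox2 lie at 8.45 to 9.10 FPKM and its top intestine points at 0.159 to 0.833, and for Cdx2 the top intestine points lie at 18.1 to 21.7 FPKM with the P1 percc1-/- stomach point at 4.30.

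Of 26 listed parietal and chief cell genes, 18 were tested, 9 were higher in stomach, 8 were not called and 1 was higher in top intestine (median 1.75). The shares called higher in stomach and in top intestine were 50 and 5.56 percent, beside 17.8 and 16.5 percent of all genes. The counts were 12 and 1 without the P1 percc1-/- libraries (median 2.44), which were set apart by the sum of this same list. The stomach libraries lay above all intestinal ones for only 1 of the 18, beside 18.1 percent of all genes. Atp4a, the catalytic subunit of the gastric proton pump, on chromosome 7, 31497228 to 31510554 (plus strand), had 20.8, 36.9, 45.2 and 47.2 FPKM in stomach. In top intestine it had 29.5, 0.185, 0.267 and 0.438 FPKM, so 3 intestinal libraries were under 0.5 FPKM and the P1 percc1-/- library lay above the stomach library of the same stage and genotype (log2 difference 3.69 ± 1.03, adjusted p = 0.0332). Without those libraries the difference was 5.10 (adjusted p = 0.000375). Atp4b, the other pump subunit, and Gif, gastric intrinsic factor, which carries vitamin B12, had 18.2, 36.4, 37.5 and 46.2 FPKM and 9.32, 22.1, 24.2 and 27.8 FPKM in stomach. In top intestine they had 24.8, 0.24, 0.26 and 0.421 FPKM and 11.2, 0.0415, 0.338 and 0.365 FPKM, with the same library apart (log2 difference 3.62 ± 0.99, adjusted p = 0.0312, and log2 difference 3.22 ± 0.83, adjusted p = 0.025).

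Cym, chymosin, the milk-clotting protease of the suckling stomach, was singled out after its values were seen because it was the highest gene in 3 of the stomach libraries. It had 69.8, 158, 141 and 185 FPKM in stomach and 81.3, 35.5, 35.3 and 37.01 in top intestine (log2 difference 1.54 ± 0.40, adjusted p = 0.0266). Pgc, progastricsin, also singled out, was not called, with 21.8, 38.1, 37.3 and 40.8 FPKM against 35.97, 6.76, 0.332 and 5.17 (log2 difference 2.31 ± 0.86, adjusted p = 0.0824). Leaving out any 1 of the 6 libraries other than the P1 percc1-/- ones ended the calls of Atp4a (adjusted p = 0.085 to 0.104), Atp4b (0.08 to 0.0983), Gif (0.0687 to 0.0827) and Cym (0.0752 to 0.0883). Cym and Pgc had differences of 2.13 and 3.32 without the P1 percc1-/- libraries (adjusted p = 0.000542 and 0.013). Those libraries were set apart by the sum of parietal and chief cell genes, so these 2 values are a description and add no support. Dnase1, a secreted nuclease, was the 1 member higher in top intestine, and was listed at 0 in the 4 stomach libraries against 4.36, 4.81, 15.2 and 7.51 FPKM.

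Genes of gastric mucous cells showed the same dependence. Of 25 listed genes, 22 were tested and 7 were higher in stomach and 1 in top intestine (median 1.75). That is 31.8 and 4.55 percent beside 17.8 and 16.5 percent of all genes. Without the P1 percc1-/- libraries, 17 were higher in stomach and 1 in top intestine (median 2.58). Those libraries were set apart by sums that include this list, so the recount adds no support. Psca, a surface antigen of gastric mucous cells, had 29.8, 42.8, 37.6 and 47.3 FPKM in stomach and 28.2, 5.95, 0.336 and 2.35 in top intestine (log2 difference 2.86 ± 0.77, adjusted p = 0.0291). Cldn18, the stomach claudin that limits proton leak, had 11.9, 25.2, 22.9 and 29.5 FPKM against 16.7, 3.21, 0.0207 and 1.42 (log2 difference 2.59 ± 0.79, adjusted p = 0.0437). Sult1c2, a sulfotransferase, and Vsig1, an adhesion protein of gastric epithelium, had differences of 2.35 and 2.27 (adjusted p = 0.0396 and 0.0335). Leaving out any 1 of the 6 libraries other than the P1 percc1-/- ones ended the calls of Psca (adjusted p = 0.0584 to 0.0931), Cldn18 (0.0908 to 0.131), Sult1c2 (0.108 to 0.121) and Vsig1 (0.0854 to 0.104). Galnt6, an enzyme that starts mucin O-glycans, was the 1 member higher in top intestine (3.89, 3.22, 5.87 and 3.86 FPKM in stomach, 13.9, 18.3, 20.3 and 24.3 in top intestine, log2 difference -1.95 ± 0.16, adjusted p = 0.000348).

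Genes of deep gland and antral mucous cells were high in 3 of the 4 intestinal libraries. Tff2, Muc6 and Gkn3, a trefoil peptide, a gland mucin and a gastrokine, were singled out after their values were seen. Tff2 had 10.7, 31.6, 25.7 and 37.2 FPKM in stomach and 25.8, 27.6, 0.403 and 31.6 in top intestine (log2 difference 0.87 ± 0.87, adjusted p = 0.484), and Muc6 had 1.15, 7.01, 14.9 and 3.51 against 21.9, 15.6, 0.615 and 15.995 (log2 difference -0.77 ± 0.98, adjusted p = 0.588). Gkn3 had 0.347, 13.3, 7.73 and 13.6 FPKM against 23.9, 19.1, 0.29 and 19.7 (log2 difference -0.61 ± 0.98, adjusted p = 0.673). For all 3, only the P5 percc1-/- library was under 1 FPKM among the intestinal ones, and the wild-type intestinal libraries lay above the wild-type stomach ones for Muc6 and Gkn3 and below them for Tff2 at each stage. None of the 3 was called without the P1 percc1-/- libraries either (adjusted p = 0.259, 0.948 and 0.583). Muc5ac, the mucin of surface mucous cells, was also singled out, and had 1.06, 5.91, 6.62 and 4.11 FPKM in stomach and 3.49, 0.172, 0.00676 and 0.046 in top intestine (log2 difference 1.66 ± 0.64, adjusted p = 0.0917; log2 difference 2.61, adjusted p = 0.00153 without the P1 percc1-/- libraries). Those libraries were set apart by sums that include gastric mucous cell genes, so the Muc5ac value without them adds no support.

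Of 23 transcription factors listed for the intestine, 19 were higher in top intestine and 0 in stomach, with a median of -1.78, and the regions did not overlap for any of the 19. Cdx2, on chromosome 5, 148112381 to 148118846 (minus strand), had 4.30, 0.189, 0.177 and 0.189 FPKM in stomach and 18.7, 18.1, 21.7 and 20.7 in top intestine (log2 difference -3.59 ± 0.45, adjusted p = 0.0016). Its relative Cdx1 had 1.73, 0.066, 0.299 and 0.166 FPKM against 15.3, 11.8, 14.51 and 13.2 (log2 difference -3.34 ± 0.24, adjusted p = 0.000231). Isx, an intestinal homeobox factor that restrains vitamin A uptake, on chromosome 8, 77396618 to 77417405 (plus strand), had 4.22, 0.548, 0.769 and 0.324 FPKM against 19.4, 26.2, 18.1 and 29.1 (log2 difference -3.51 ± 0.42, adjusted p = 0.00135). For all 3, the P1 percc1-/- library was the highest of the stomach libraries. Nr1i3, the nuclear receptor CAR, on chromosome 1, 173144101 to 173150832 (plus strand), was listed at 0 in all 4 stomach libraries and had 8.75, 7.58, 4.78 and 11.6 FPKM in top intestine (adjusted p = 0.000233).

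Hnf4a and Hnf4g were detected in all 8 libraries, at higher levels in top intestine. Hnf4a, which maintains enterocyte genes, had 8.81, 9.57, 12.2 and 11.2 FPKM in stomach and 27.7, 31.2, 30.2 and 33.7 in top intestine (log2 difference -1.48 ± 0.084, adjusted p = 8.88e-05). Its relative Hnf4g had 3.27, 3.69, 1.53 and 2.13 FPKM against 18.6, 25.9, 13.8 and 15.1 (log2 difference -2.41 ± 0.10, adjusted p = 2.13e-05). Onecut2 and Creb3l3, a factor of lipid metabolism bound to the endoplasmic reticulum, had differences of -2.80 and -2.54 (adjusted p = 0.000189 and 0.00044). Vdr, the vitamin D receptor, and Nr1h4, the bile acid receptor FXR, had -2.12 and -1.95 (adjusted p = 0.0024 and 0.000226). Pdx1, the factor of the duodenum, antrum and pancreas, had 0.107, 0.853, 0.258 and 1.26 FPKM against 4.46, 5.82, 4.83 and 7.29 (log2 difference -2.07 ± 0.13, adjusted p = 0.000135). Not called were Prdm1, a repressor of adult enterocyte genes before weaning (-0.85, adjusted p = 0.0712), Osr2 (-0.78, 0.1), Ppara, the fatty acid receptor (0.17, 0.6), and Tcf21 (0.25, 0.179). Prdm1 was called higher in top intestine without the P1 percc1-/- libraries (difference -1.25, adjusted p = 0.00779).

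The brush border is the layer of microvilli on enterocytes, which carries digestive enzymes. Of 30 listed genes, 23 were tested and those 23 were all higher in top intestine, with a median of -3.01 and no overlap between the regions for any of them. Mgam, the enzyme maltase-glucoamylase that cuts starch, on chromosome 6, 40578830 to 40719122 (mm9, plus strand), had 11.4, 0.223, 1.57 and 0.224 FPKM in stomach and 56.5, 62.9, 33.9 and 66.8 in top intestine (log2 difference -4.37 ± 0.66, adjusted p = 0.00331). Lct, lactase, the enzyme of milk sugar, was singled out after its values were seen and had 7.97, 1.33, 1.80 and 0.744 FPKM against 35.2, 47.6, 45.002 and 43.2 (log2 difference -3.77 ± 0.42, adjusted p = 0.00103). Ush1c, a scaffold that links microvilli, had 5.51, 1.04, 0.836 and 0.679 FPKM against 41.5, 50.8, 41.8 and 46.1 (log2 difference -4.18 ± 0.37, adjusted p = 0.000461). The P1 percc1-/- library was the highest of the stomach libraries for all 3, and its levels lay below every intestinal library. The microvillus motor Myo7b and the protease Mep1b had differences of -3.93 and -3.81 (adjusted p = 0.00288 and 0.00281). Sis, sucrase-isomaltase, an enzyme of the weaned intestine, was under the filter on low levels, with 0 to 0.148 FPKM in stomach and 1.17 to 1.67 in top intestine.

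Promoter sequences of genes from both sides are shown because binding motifs of GATA, CDX and HNF4 factors, whose genes are described above, can be read in some of them. Each is the 120 bases before a RefSeq start site (GRCm38.p6), 5′ to 3′ on the gene's strand, with matches in capitals. Both strands were searched for one motif of each family. That of the GATA type factors was AGATAA, which on the opposite strand is read as TTATCT. That of the CDX type factors was TTTATG, which on the opposite strand is read as CATAAA. That of the HNF4 type factors was CAAAGT, which on the opposite strand is read as ACTTTG, and no form contains another. The 3 intestinal genes were chosen for their matches, and Rptn as the squamous gene described first.
Lct, chr1:128328319-128328438, minus strand: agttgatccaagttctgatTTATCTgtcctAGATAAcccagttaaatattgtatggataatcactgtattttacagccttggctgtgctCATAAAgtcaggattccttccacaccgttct
Mgam, chr6:40628711-40628830, plus strand: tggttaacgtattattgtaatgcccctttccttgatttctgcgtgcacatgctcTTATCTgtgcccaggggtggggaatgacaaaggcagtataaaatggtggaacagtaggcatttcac
Slc3a1, chr17:85028227-85028346, plus strand: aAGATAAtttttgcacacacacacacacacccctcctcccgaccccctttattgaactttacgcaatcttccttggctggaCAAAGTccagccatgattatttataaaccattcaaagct
Rptn, chr3:93393579-93393698, plus strand: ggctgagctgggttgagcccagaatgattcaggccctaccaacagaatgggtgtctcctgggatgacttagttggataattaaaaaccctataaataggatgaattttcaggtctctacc
The Lct window held a GATA type match on each strand and a CDX type match, that of Mgam a GATA type match, and that of Slc3a1 a GATA type and an HNF4 type match. The Rptn window held 0 matches. In the 250 bases before the start, 9.99 percent of all 32851 promoters in the RefSeq table held the GATA type motif, 10.8 percent the CDX type and 12.6 percent the HNF4 type. Among the 13310 promoters of tested genes, the shares were lower, at 6.39, 6.30 and 10.9 percent. For the brush border list, 25 promoters of 19 of the 23 tested genes were found, and 4, 4 and 5 of them held the motifs (16, 16 and 20 percent). Of 18 gastric mucous promoters 5, 1 and 3 held them (27.8, 5.56 and 16.7 percent), of 20 squamous ones 1, 3 and 1 (5, 15 and 5 percent). Of 14 parietal and chief cell promoters 1, 0 and 1 held them (7.14, 0 and 7.14 percent), of 21 fat absorption ones 2, 3 and 7 (9.52, 14.3 and 33.3 percent). Matches were thus found on both sides. A match is a description of letters, not a site. Promoters were found for 82.6 percent of the tested brush border genes and 78.6 percent of all genes tested. For the other lists these were 47.2 to 74.1 percent, so all these shares leave genes out. The same check over all called genes is not reported here.

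Of 29 listed genes of fat absorption and chylomicron assembly, 27 were tested, 23 were higher in top intestine and 0 in stomach (median -1.61). Abcg5 and Abcg8, the paired sterol exporters, had 10.5 to 23.7 and 7.50 to 19.3 FPKM in top intestine and 0.282 to 0.872 and 0.0317 to 0.628 in stomach (differences -3.47 and -3.47, adjusted p = 0.000201 and 0.000465). Npc1l1, the cholesterol importer, had 3.82, 0.594, 1.89 and 2.14 FPKM in stomach and 17.8, 27.1, 28.96 and 30.6 in top intestine (log2 difference -3.20 ± 0.34, adjusted p = 0.000835). Mttp, which loads fat onto apolipoprotein B and was singled out after its values were seen, had 18.6, 7.74, 8.94 and 5.33 FPKM against 71.2, 85.4, 60.9 and 65.1 (log2 difference -2.80 ± 0.24, adjusted p = 0.000453). Apoc3, an apolipoprotein that liver makes too, had 18.1, 0.331, 9.43 and 0.775 FPKM against 39.6, 48.7, 46.2 and 45.7 (log2 difference -3.30 ± 0.68, adjusted p = 0.0113). Its stomach values were high in the P5 percc1-/- library, where the liver genes summed to 398 FPKM, and in the P1 percc1-/- library, where they summed to 31.4; the part of liver was not tested.

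Of 37 listed nutrient transporters, 29 were tested, 26 were higher in top intestine and 1 in stomach (median -2.13). Slc7a9 and Slc3a1, the light and heavy chains of the cystine transporter, had 9.17, 0.191, 0.556 and 0.239 and 6.97, 0, 0 and 0 FPKM in stomach. In top intestine they had 34.97, 55.5, 44.8 and 53.3 and 22.5, 23.7, 20.8 and 19.8 FPKM (log2 difference -4.43 ± 0.64, adjusted p = 0.00287, and log2 difference -3.75 ± 0.58, adjusted p = 0.00354). In stomach, both were seen mainly in the P1 percc1-/- library, and Slc3a1 was listed at 0 in the other 3. Slc7a9 lies on chromosome 7, 36234056 to 36251055 (plus strand). Slc26a3, the chloride and bicarbonate exchanger, had 3.83, 0.198, 0.325 and 0.0883 FPKM against 32.6, 41.7, 24.3 and 42.2 (log2 difference -4.38 ± 0.45, adjusted p = 0.00077), and Slc2a2, the glucose transporter GLUT2, had 1.23, 0.202, 3.97 and 0.113 against 18.9, 40.8, 18.8 and 32.8 (log2 difference -3.80 ± 0.53, adjusted p = 0.00249). Slc2a2 is also a liver gene, and its highest stomach value was in the P5 percc1-/- library with the high liver sum; that part was not tested. Trpv6, a calcium channel, was the 1 member higher in stomach (3.14, 4.59, 1.14 and 4.50 FPKM against 1.85, 1.15, 0.68 and 0.936, log2 difference 0.94 ± 0.27, adjusted p = 0.0366). Leaving out 1 library ended the Trpv6 call in 6 of 8 cases, all but those of the P5 percc1-/- stomach and the P1 percc1-/- top intestine (adjusted p = 0.0772 to 0.103). Fabp6, the ileal bile acid carrier, was singled out because it was high in both P1 percc1-/- libraries, with 15.3, 1.94, 2.33 and 0.9 FPKM in stomach and 16.7, 0, 0.594 and 0 in top intestine (log2 difference 0.86 ± 0.56, adjusted p = 0.289).

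The suckling enterocyte takes up whole proteins and makes citrulline, and of 22 listed genes of these processes 20 were tested, 17 were higher in top intestine and 1 in stomach (median -1.25). Cubn and Amn, the cubilin and amnionless pair that binds proteins at the cell surface, had 3.29, 0.488, 1.13 and 0.307 and 4.66, 0.0343, 0.423 and 0.0689 FPKM in stomach. In top intestine they had 24.9, 28.3, 19.2 and 27.6 and 19.7, 17.9, 19.8 and 22.8 FPKM (log2 difference -3.65 ± 0.33, adjusted p = 0.000506, and log2 difference -3.60 ± 0.47, adjusted p = 0.00187). Mcoln3, a channel of the large lysosomes of suckling enterocytes, had a difference of -3.38 (adjusted p = 0.00244), and Nags, which makes the activator of citrulline synthesis, of -3.23 (adjusted p = 0.000749). Fcgrt, the receptor that carries milk antibodies, was singled out after its values were seen, and had 23.9, 14.2, 16.01 and 15.6 FPKM against 43.8, 56.3, 60.4 and 57.96 (log2 difference -1.61 ± 0.18, adjusted p = 0.00109). The 1 member higher in stomach was Arg1, arginase, with 14.2, 18.7, 12.6 and 12.4 FPKM against 1.07, 1.16, 0.778 and 1.93 (log2 difference 2.80 ± 0.17, adjusted p = 0.000134); the regions did not overlap for either gene.

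Of 18 listed genes of glucose and ketone making, 15 were tested and 12 were higher in top intestine and 1 in stomach (median -0.71). Pck1, which controls entry into gluconeogenesis, on chromosome 2, 172978549 to 172984774 (plus strand), had 5.59, 0.755, 26.6 and 0.662 FPKM in stomach and 54.8, 90.6, 86.7 and 93.6 in top intestine (log2 difference -4.07 ± 0.74, adjusted p = 0.00696). G6pc, the last enzyme of the path, had 1.29, 0.0772, 24.2 and 0.103 FPKM against 23.6, 24.4, 22.1 and 50.2 (log2 difference -3.35 ± 0.87, adjusted p = 0.0261), and Fbp1, another enzyme of the path, had a difference of -2.81 (adjusted p = 0.0107). These are liver genes too, and all 3 had their highest stomach value in the P5 percc1-/- library, where the liver sum was 398 FPKM. The part of liver was not tested. The G6pc call ended on leaving out the P1 percc1-/-, P1 wild-type or P5 wild-type library of either region (adjusted p = 0.0527 to 0.0858). The G6pc difference was -3.34 without both P1 percc1-/- libraries (adjusted p = 0.098). Pcx, pyruvate carboxylase, was the 1 member higher in stomach (13.8, 9.11, 13.7 and 9.17 FPKM against 5.81, 3.63, 2.90 and 4.56, log2 difference 1.26 ± 0.20, adjusted p = 0.00438).

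Goblet cell genes numbered 20 in the list, and 15 were tested. In top intestine 6 were higher and in stomach 2 (median -0.59). That is 40 and 13.3 percent beside 16.5 and 17.8 percent of all genes, so the share higher in stomach was under that of all genes. St6galnac1, which adds sialic acid to mucins, had 4.16, 0.0604, 0.218 and 0.121 FPKM in stomach and 9.45, 26.7, 26.1 and 28.8 in top intestine (log2 difference -3.73 ± 0.63, adjusted p = 0.00497). Clca3, a secreted goblet product, had 7.12, 2.52, 0.987 and 0.85 FPKM against 21.4, 33.6, 31.1 and 31.998 (log2 difference -3.23 ± 0.43, adjusted p = 0.002), and Zg16, a lectin of goblet granules that the pancreas makes too, had 0.433, 2.27, 0.672 and 2.28 against 15.05, 24.02, 13.7 and 21.7 (log2 difference -3.09 ± 0.14, adjusted p = 3.28e-05). Muc13, a surface mucin, had a difference of -2.81 (adjusted p = 0.000769). The 2 members higher in stomach were Kcnma1, a potassium channel that muscle also has (log2 difference 1.38 ± 0.14, adjusted p = 0.000815), and Bcas1 (log2 difference 1.06 ± 0.19, adjusted p = 0.0066). The numbers were 7 and 5 without the P1 percc1-/- libraries.

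Of 26 listed Paneth cell and antibacterial genes, 10 were tested, 7 were higher in top intestine and 0 in stomach (median -2.35). Pigr, which carries IgA across the epithelium, had 4.03, 0.635, 0.969 and 0.679 FPKM in stomach and 19.3, 20.7, 24.6 and 23.1 in top intestine (log2 difference -3.32 ± 0.33, adjusted p = 0.000688). Itln1, an intelectin that binds bacterial sugars, had 5.77, 0.609, 0.917 and 0.102 FPKM against 14.6, 24.9, 22.3 and 23.3 (log2 difference -3.32 ± 0.50, adjusted p = 0.00337). Reg4 and Reg1, secreted lectins, had differences of -3.15 and -2.89 (adjusted p = 0.0042 and 0.00496). Reg1 is also made by the pancreas, whose summed genes were higher in the wild-type libraries, and its stomach values were 0.836, 3.46, 0.556 and 11.6 FPKM, likewise higher in wild type; that part was not tested. The other 10 usable members were under the filter on low levels.

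Of 20 listed genes of crypt and gastric stem cells, 18 were tested, 7 were higher in stomach and 1 in top intestine (median 0.22). That is 38.9 and 5.56 percent beside 17.8 and 16.5 percent of all genes. Tnfrsf19, the receptor Troy of slowly dividing gastric stem cells, had 10.5, 11.2, 9.04 and 9.05 FPKM in stomach and 1.76, 1.67, 1.54 and 1.47 in top intestine (log2 difference 2.06 ± 0.10, adjusted p = 4.97e-05). Ephb3 and Nkd1, targets of Wnt signalling, had differences of 1.16 and 1.11 (adjusted p = 0.000607 and 0.000469). Ephb2, the relative of Ephb3, was the 1 member higher in top intestine, with 5.56, 4.45, 4.92 and 4.99 FPKM in stomach and 8.28, 10.8, 11.3 and 13.5 in top intestine (log2 difference -0.98 ± 0.14, adjusted p = 0.00266). The Eph receptors had differences of opposite sign, and the regions overlapped for neither. Of 21 genes of cell division, 0 were called in either direction by limma and 0 had an unadjusted p under 0.05. Their differences lay between -0.25 and 0.20, and their sum was 152 to 242 FPKM in stomach and 175 to 229.9 in top intestine.

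Hedgehog and BMP signals pass between gut epithelium and mesenchyme. Of 35 listed genes, 33 were tested, 10 were higher in stomach and 6 in top intestine (median 0.18), which is 30.3 and 18.2 percent beside 17.8 and 16.5 percent of all genes. The share higher in top intestine was near that of all genes. The epithelial hedgehog ligands differed in opposite directions. Shh, sonic hedgehog, had 0.843, 3.94, 2.77 and 4.33 FPKM in stomach and 0.975, 0.129, 0.0862 and 0 in top intestine (log2 difference 1.56 ± 0.40, adjusted p = 0.0253), and Ihh, indian hedgehog, had 1.96, 5.98, 6.14 and 8.95 against 9.49, 14.3, 13.1 and 11.6 (log2 difference -1.07 ± 0.26, adjusted p = 0.0215). Leaving out any 1 of the 6 libraries other than the P1 percc1-/- ones ended the Shh call (adjusted p = 0.0706 to 0.0858). The Ihh call ended without the P1 percc1-/-, P1 wild-type or P5 percc1-/- top intestine (adjusted p = 0.0593 to 0.0739). Both were called without the P1 percc1-/- libraries of both regions, with differences of 2.13 and -0.82 (adjusted p = 0.00277 and 0.0321).

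On the receiving side, Boc, a hedgehog co-receptor, had 12.6, 7.97, 9.44 and 6.75 FPKM in stomach and 5.19, 2.34, 3.23 and 2.76 in top intestine (log2 difference 1.23 ± 0.14, adjusted p = 0.00108). Bmpr1b, a BMP receptor, had 1.999, 3.36, 3.07 and 2.90 FPKM against 1.66, 0.37, 0.398 and 0.273 (log2 difference 1.25 ± 0.27, adjusted p = 0.013), a call that ended without the P1 or the P5 wild-type stomach (adjusted p = 0.0503 to 0.0511). Grem1, a secreted protein that binds BMPs, was singled out after its values were seen and had 5.27, 4.35, 4.35 and 5.24 FPKM against 9.69, 9.48, 11.3 and 9.89 (log2 difference -0.94 ± 0.11, adjusted p = 0.00126). The regions did not overlap for Boc or Grem1.

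Of 42 listed Wnt pathway genes, 29 were tested, 16 were higher in stomach and 2 in top intestine (median 0.60). The 2 were Fzd5, a Wnt receptor (log2 difference -0.58 ± 0.18, adjusted p = 0.0471), and Rnf43, which removes Wnt receptors (log2 difference -0.44 ± 0.13, adjusted p = 0.0467). The Fzd5 call ended on leaving out any 1 library but the P5 wild-type stomach (adjusted p = 0.0616 to 0.114), and the Rnf43 call on leaving out any 1 of the 6 other than the P1 percc1-/- ones (adjusted p = 0.0633 to 0.133). Without the P1 percc1-/- libraries of both regions, 15 and 0 were higher. Sfrp2, a secreted Wnt binder, had 12.2, 15.9, 14.48 and 18.6 FPKM in stomach and 2.16, 1.59, 3.45 and 2.56 in top intestine (log2 difference 2.26 ± 0.16, adjusted p = 0.000221), and Fzd10, a receptor, had 5.79, 3.40, 4.04 and 3.65 against 0.315, 0.256, 0.231 and 0.299 (log2 difference 2.01 ± 0.15, adjusted p = 0.000268). Among ligands and enhancers, Wnt4 had 25.9, 14.1, 12.5 and 11.97 FPKM against 5.80, 2.87, 3.29 and 4.24 (log2 difference 1.73 ± 0.23, adjusted p = 0.00191), and Rspo1, which strengthens Wnt signals, had 2.40, 4.91, 3.06 and 7.75 against 0.392, 0.833, 0.627 and 0.488 (log2 difference 1.71 ± 0.23, adjusted p = 0.002). The regions did not overlap for these 4 genes.

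Hox genes set position along the body axis. Of 39 listed, 28 were usable, 10 passed the filter on low levels, 6 were higher in stomach and 0 in top intestine (median 0.71). The largest differences were in the HoxC cluster. Hoxc8, on chromosome 15, 102821053 to 102824698 (plus strand), had 8.70, 4.36, 4.09 and 3.81 FPKM in stomach and 1.51, 0.242, 0.559 and 0.482 in top intestine (log2 difference 1.87 ± 0.21, adjusted p = 0.00106). Hoxc5 and Hoxc4 had 7.27, 4.83, 4.61 and 3.85 and 5.26, 5.19, 4.02 and 4.81 FPKM in stomach and 0.932, 0.699, 0.863 and 0.86 and 0.865, 0.995, 1.54 and 0.987 in top intestine (differences 1.71 and 1.48, adjusted p = 0.000476 and 0.000815). Hoxc6 had a difference of 1.07 (adjusted p = 0.017), a call that ended without the P1 wild-type library of either region (adjusted p = 0.0572 to 0.0599) or both P1 percc1-/- libraries (adjusted p = 0.0613). Of the 18 usable Hox genes under the filter on low levels, 4 that mark the posterior body were singled out after their values were seen, since they were higher in both percc1-/- top intestine libraries than in the wild-type ones. Hoxa10 had 1.70, 0.0589, 1.78 and 0.129 FPKM in top intestine, Hoxa13 0.508, 0, 1.47 and 0, Hoxb13 0.295, 0, 7.31 and 0 and Hoxd13 0.111, 0, 1.64 and 0. In stomach these 4 genes were at 0 to 0.037 FPKM. Hoxa9, Hoxa11, Hoxb8, Hoxb9, Hoxd9 and Hoxd12 had the same order of the genotypes in top intestine. Transcripts of Hoxc4, Hoxc5 and Hoxc6 overlap, and their records can share reads.

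Claudins seal the space between epithelial cells and set its permeability. Of 22 listed, 14 were tested, 6 were higher in top intestine and 3 in stomach (median -0.45). That is 42.9 and 21.4 percent beside 16.5 and 17.8 percent of all genes. Cldn2, which forms a channel for sodium and water, had 6.35, 0.283, 1.43 and 0.189 FPKM in stomach and 27.1, 31.3, 27.3 and 28.04 in top intestine (log2 difference -3.69 ± 0.46, adjusted p = 0.00157). Cldn15, another sodium channel, and Cldn3, a sealing claudin, had differences of -2.35 and -2.37 (adjusted p = 7.74e-05 and 0.00187). The 3 higher in stomach were Cldn18, described above, and Cldn17 and Cldn1, both singled out after their values were seen. Cldn17 had 7.87, 4.34, 1.66 and 2.48 FPKM against 0.0472, 0, 0 and 0 (log2 difference 2.18 ± 0.30, adjusted p = 0.00225), and Cldn1, a claudin of the skin barrier, 10.7, 6.72, 6.68 and 4.73 against 1.38, 4.18, 2.38 and 1.14 (log2 difference 1.37 ± 0.30, adjusted p = 0.0147). The Cldn1 call ended without the P5 wild-type top intestine (adjusted p = 0.0517).

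**Figure D4:**
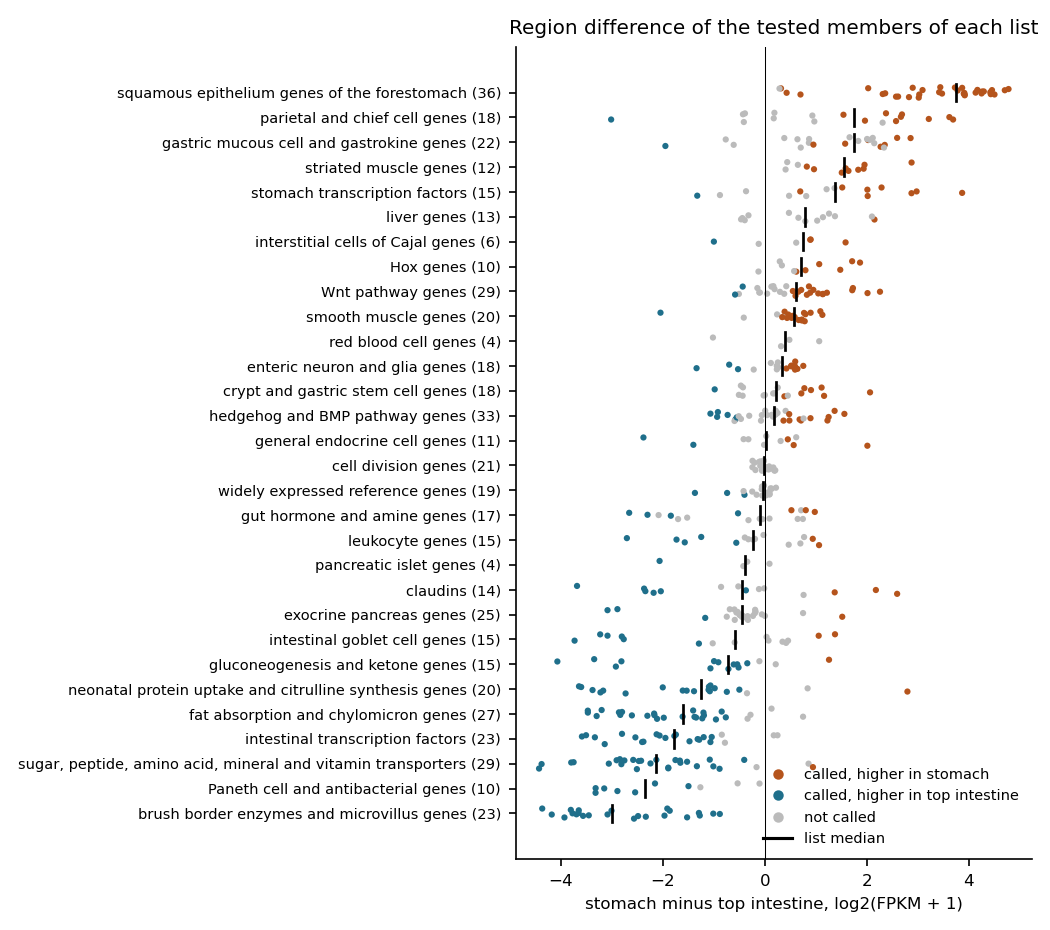
Differences between stomach and top intestine (horizontal axis, log2(FPKM + 1)) of the tested members of 30 gene lists (vertical axis, number tested in brackets); each point is a gene and each bar a list median. The medians run from -3.01 for brush border genes to 3.76 for squamous genes, and the 21 genes of cell division lie between -0.25 and 0.20.

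Smooth muscle genes were higher in stomach for 16 of 20 members and in top intestine for 1 (median 0.56). Actg2, the actin of visceral muscle, had 60.6, 61.1, 76.1 and 76.9 FPKM in stomach and 34.5, 40.6, 36.1 and 33.9 in top intestine (log2 difference 0.90 ± 0.10, adjusted p = 0.00117). Lmod1 and Pgm5, proteins of the contractile and adhesion apparatus, had differences of 1.13 and 1.09 (adjusted p = 0.00125 and 0.00163). Ldb3, a protein of the contractile apparatus that striated muscle also has, was the 1 higher in top intestine, with 4.85, 2.41, 5.30 and 3.47 FPKM against 11.7, 20.1, 29.9 and 18.8 (log2 difference -2.05 ± 0.26, adjusted p = 0.00161). Of 23 listed genes of striated muscle, 12 were tested, 9 were higher in stomach and 0 in top intestine. The 16 usable ones summed to 42.2 to 92.2 FPKM in stomach and 15.6 to 21.5 in top intestine. Myh3, an embryonic myosin, had 11.1, 7.04, 7.56 and 3.20 FPKM against 0.0369, 0.0965, 0.0339 and 0.0187 (log2 difference 2.88 ± 0.24, adjusted p = 0.000399), and Tnnc2, Acta1 and Ttn had differences of 1.95, 1.94 and 1.83 (adjusted p = 0.0037, 9e-05 and 0.00644).

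Of 23 listed enteric neuron and glia genes, 18 were tested, 9 were higher in stomach and 3 in top intestine (median 0.34); the latter is 16.7 percent, near the 16.5 percent of all genes. Cartpt, a peptide of enteric neurons, had 7.74, 7.34, 8.05 and 8.61 FPKM in stomach and 5.27, 3.997, 4.35 and 3.69 in top intestine (log2 difference 0.75 ± 0.12, adjusted p = 0.00413). Tubb3, a neuronal tubulin, had a difference of 0.64 (adjusted p = 0.00829). The 3 higher in top intestine were Ret, the GDNF receptor of enteric precursors (log2 difference -0.70 ± 0.11, adjusted p = 0.004), the glial gene S100b (1.51, 2.12, 1.54 and 1.61 FPKM against 1.71, 6.71, 8.32 and 10.03, log2 difference -1.34 ± 0.35, adjusted p = 0.0266) and the peptide Gal. Leaving out any 1 of the 6 libraries other than the P1 percc1-/- ones ended the S100b call (adjusted p = 0.0564 to 0.0859). Among 6 genes of interstitial cells of Cajal, the pacemakers of gut movement, 3 were higher in stomach. They were the chloride channel Ano1 (21.1, 20.2, 17.2 and 23.7 FPKM against 7.24, 5.01, 7.27 and 5.37, log2 difference 1.58 ± 0.16, adjusted p = 0.000662), Kit (log2 difference 0.89 ± 0.15, adjusted p = 0.00461) and the gap junction gene Gja1 (log2 difference 0.90 ± 0.11, adjusted p = 0.0017). Thbs4 was higher in top intestine (log2 difference -1.001 ± 0.22, adjusted p = 0.0141), at 0.698 to 2.91 FPKM against 0.199 to 0.516.

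Of 28 listed leukocyte genes, 15 were tested, 5 were higher in top intestine and 2 in stomach (median -0.23), which is 33.3 and 13.3 percent beside 16.5 and 17.8 percent of all genes. Ccl25, the epithelial chemokine that draws lymphocytes to the small intestine, had 7.28, 3.19, 3.67 and 1.18 FPKM in stomach and 21.8, 33.02, 29.1 and 26.6 in top intestine (log2 difference -2.71 ± 0.33, adjusted p = 0.00148). Itgax, of dendritic cells, and H2-Aa and H2-Ab1, the class II antigen-presenting chains, had differences of -1.73, -1.57 and -1.25 (adjusted p = 0.00585, 0.000906 and 0.000983). The P1 percc1-/- library had the lowest level of these 4 genes in top intestine. Named for being the few others called, the macrophage receptor gene Csf1r had a difference of -0.56, and the mast cell protease genes Mcpt4 and Cpa3, higher in stomach, of 0.94 and 1.06 (adjusted p = 0.0385, 0.0185 and 0.00226). Leaving out any 1 of the 6 libraries other than the P1 percc1-/- ones ended the Csf1r call (adjusted p = 0.081 to 0.117), and the Mcpt4 call ended without the P5 wild-type library of either region or the P5 percc1-/- top intestine (adjusted p = 0.0608 to 0.0634), or without both P1 percc1-/- libraries (adjusted p = 0.0809). Of 25 tested exocrine pancreas genes, Zg16 and Reg1, described above, and Ctrb1, chymotrypsinogen, were higher in top intestine and Bhlha15 in stomach. These are 12 and 4 percent, under the 16.5 and 17.8 percent of all genes. Ctrb1 had 0.984, 25.2, 4.71 and 25.6 FPKM in stomach and 6.80, 36.3, 16.5 and 38.9 in top intestine (log2 difference -1.17 ± 0.36, adjusted p = 0.0461), and its call held only on leaving out 1 of the P1 wild-type stomach and the P5 wild-type top intestine (adjusted p = 0.0697 to 0.122 otherwise, and 0.0553 without both P1 percc1-/- libraries). Of 13 tested liver genes, Alb, albumin, was higher in stomach (1.37, 2.77, 39.4 and 2.93 FPKM against 0.135, 0.0623, 1.80 and 0.0821, log2 difference 2.15 ± 0.66, adjusted p = 0.0469). That call held only on leaving out 1 of the percc1-/- stomach libraries (adjusted p = 0.0518 to 0.136 otherwise). Alb alone is 7.69 percent of the tested liver genes, under the 17.8 percent of all genes called higher in stomach. Of 4 tested red blood cell genes, 0 were called by limma. Among 19 widely expressed reference genes, Gusb, B2m and Sdha were higher in top intestine (differences -1.37, -0.74 and -0.40), 0 were higher in stomach, and the median was -0.044. The share higher in top intestine was 15.8 percent, near the 16.5 percent of all genes.

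Hormone and amine genes did not share a direction. Of 20 listed, 17 were tested, 3 were higher in stomach and 4 in top intestine (median -0.10), beside 17.8 and 16.5 percent of all genes. Sct, secretin of S cells, had 1.54, 0.342, 0.937 and 0.229 FPKM in stomach and 6.87, 16.9, 5.33 and 13.6 in top intestine (log2 difference -2.66 ± 0.40, adjusted p = 0.00334), and Insl5 had 0.134, 0, 0.0693 and 0.339 against 1.45, 9.76, 5.45 and 4.65 (log2 difference -2.30 ± 0.39, adjusted p = 0.00509). Tph1, the first enzyme of serotonin synthesis, had 1.64, 0.267, 3.01 and 0.402 FPKM against 10.6, 4.23, 8.40 and 4.50 (log2 difference -1.85 ± 0.17, adjusted p = 0.000573). The percc1-/- libraries were the higher ones for Tph1 in both regions. Gal, galanin, had a difference of -0.53 (adjusted p = 0.0411). Higher in stomach were Nmu, neuromedin U (log2 difference 0.98 ± 0.25, adjusted p = 0.0262), Hdc, the histamine-making enzyme (log2 difference 0.80 ± 0.21, adjusted p = 0.028), and Vip, a neuronal peptide (log2 difference 0.52 ± 0.099, adjusted p = 0.00788). Leaving out 1 library ended the call of Gal in all cases but that of the P1 percc1-/- stomach (adjusted p = 0.0591 to 0.131). It ended the call of Hdc in all cases but those of the P1 wild-type stomach and the P1 percc1-/- top intestine (adjusted p = 0.0574 to 0.0916). It ended the call of Nmu without the P1 percc1-/-, P1 wild-type or P5 percc1-/- stomach or the P5 percc1-/- top intestine (adjusted p = 0.067 to 0.075). Without both P1 percc1-/- libraries, neither Nmu nor Hdc was called (adjusted p = 0.0578 and 0.0532).

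Ghrl, Gip, Cck and Nts were under 1 FPKM in all 4 percc1-/- libraries, so any region difference of theirs came from the wild-type libraries. Ghrl, ghrelin, was listed at 0 in all 4 percc1-/- libraries and had 37.8 and 40.7 FPKM in wild-type stomach and 17.3 and 13.9 in wild-type top intestine (log2 difference 0.64 ± 0.28, adjusted p = 0.119). Gip, the incretin of K cells, had 0.0707, 0.267, 0.22 and 0.805 FPKM in stomach and 0.341, 24.9, 0.0885 and 24.6 in top intestine (log2 difference -2.09 ± 0.80, adjusted p = 0.0887), and Cck, cholecystokinin, had 0.736, 0.842, 0.346 and 0.677 against 0.726, 17.3, 0.586 and 15.2 (log2 difference -1.70 ± 0.63, adjusted p = 0.0809). Nts, neurotensin, had 0.234, 11.1, 0.146 and 9.43 FPKM in top intestine and 0.0778 to 0.443 in stomach (log2 difference -1.52 ± 0.63, adjusted p = 0.11). Gast, gastrin, and Sst, somatostatin, had 0, 5.08, 0.731 and 11.5 and 0.996, 14.6, 6.502 and 23.4 FPKM in stomach and 1.70, 1.12, 0.126 and 1.84 and 1.75, 12.96, 0.576 and 10.9 in top intestine (log2 difference 0.71 ± 0.57, adjusted p = 0.382, and log2 difference 0.74 ± 0.41, adjusted p = 0.213). None of these 6 was called for region over the 8 libraries. Gast was called higher in stomach without the P1 percc1-/- libraries (difference 1.43, adjusted p = 0.031). Gcg, Pyy, Tac1 and Iapp had differences of -0.048, -0.32, -0.10 and 0.09 (adjusted p = 0.862, 0.64, 0.678 and 0.858). Of 22 listed general endocrine genes, 11 were tested, 3 were higher in stomach and 2 in top intestine, which is 27.3 and 18.2 percent beside 17.8 and 16.5 percent of all genes. Higher in stomach were Isl1, above, Scg5 and Cpe, both of prohormone processing (differences 0.56 and 0.45, adjusted p = 0.046 and 0.0106). The Scg5 call ended on leaving out any 1 library but the P1 percc1-/- stomach (adjusted p = 0.0809 to 0.138), and the Cpe call without both P1 percc1-/- libraries (adjusted p = 0.0522). Among those higher in top intestine was Chgb, the granule protein chromogranin B (6.87, 3.45, 10.3 and 5.29 FPKM against 17.99, 17.9, 17.998 and 16.9, log2 difference -1.40 ± 0.20, adjusted p = 0.00274).

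**Figure D5:**
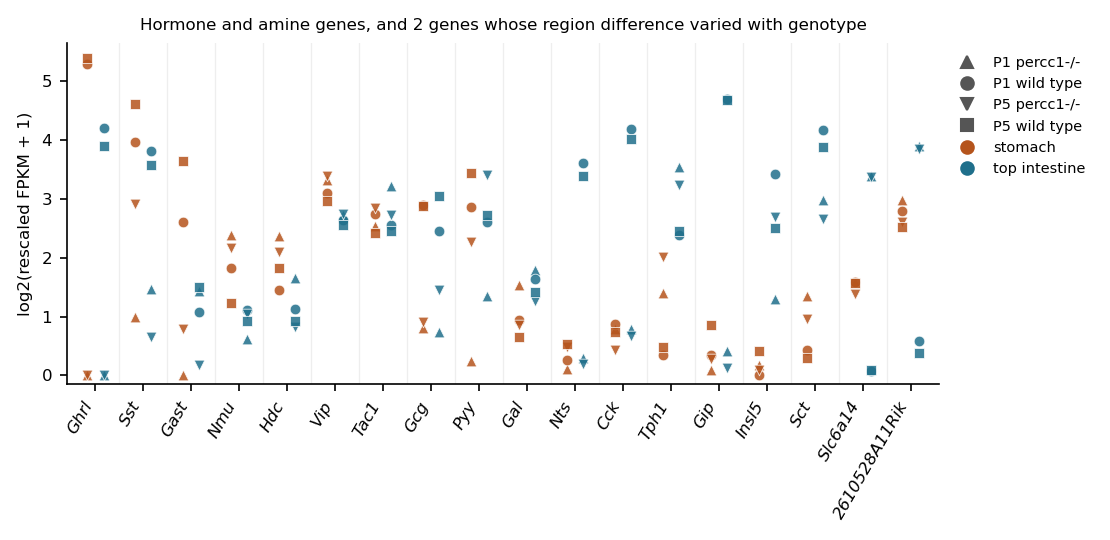
Level of 16 hormone and amine genes and of Slc6a14 and 2610528A11Rik, as log2(rescaled FPKM + 1), in each of the 8 libraries (1 point a library; colour gives the region and shape the stage and genotype). Gip lies at 24.9 and 24.6 FPKM in the wild-type top intestine points and under 1 FPKM in the other 6, and Slc6a14 at 9.48 and 9.28 FPKM in the percc1-/- top intestine points.

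Whether the region difference varied with genotype was tested by an interaction term. It was called for 9 of 13342 genes (0.0675 percent), and 859 had an unadjusted p under 0.05. With each stage and genotype as a replicate block limma called 0 genes (888 at an unadjusted p under 0.05), so the block ended all 9 calls. Each value here is the region difference in percc1-/- minus that in wild type. For Gip it was log2 4.01 ± 0.34, adjusted p = 0.0464, and for Cck log2 3.18 ± 0.24, adjusted p = 0.0309: both were higher in wild-type top intestine than in wild-type stomach, and near 0 in all percc1-/- libraries. Slc6a14, an amino acid transporter, on chromosome X, 21292022 to 21319481 (plus strand), went the other way (log2 -3.39 ± 0.24, adjusted p = 0.0234). It had 2.01, 2.02, 1.62 and 1.98 FPKM in stomach and 9.48, 0.0556, 9.28 and 0.0652 in top intestine, so the percc1-/- intestinal libraries lay above stomach and the wild-type ones below. The gene 2610528A11Rik had the same order, with 6.86, 5.89, 5.09 and 4.76 FPKM against 13.9, 0.505, 13.3 and 0.296 (log2 -3.25 ± 0.23, adjusted p = 0.0234). In 6 large bowel libraries of P1 and P5, Slc6a14 had 18.1 to 31.2 FPKM and 2610528A11Rik had 24.1 to 37.2. In top intestine, posterior Hox genes under the filter on low levels were also higher in the percc1-/- libraries: Hoxa10, Hoxa13 and Hoxb13, given above with Hoxd13. The part of other gut regions in these values was not tested. Cps1, of citrulline and urea synthesis, had 12.1, 0.541, 14.4 and 0.58 FPKM in stomach and 36.6, 44.4, 44.3 and 41.1 in top intestine (log2 3.27 ± 0.20, adjusted p = 0.0153). Its percc1-/- stomach values were high both where the liver genes summed to 398 FPKM and where they summed to 31.4, and the part of liver was not tested.

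The other 4 called genes had values listed at 0 in percc1-/- libraries of 1 region. Prelid1, a mitochondrial lipid carrier, was listed at 0 in percc1-/- stomach and had 24.1 and 25.2 FPKM in wild-type stomach (log2 -4.45 ± 0.20, adjusted p = 0.0113). Dnajc19, a mitochondrial chaperone part, was listed at 0 in percc1-/- stomach and had 15.5 and 14.0 in wild type (log2 -3.75 ± 0.21, adjusted p = 0.0153). Unc50 and Rdbp were listed at 0 in percc1-/- top intestine and had 13.4 to 17.2 and 10.2 to 12.0 FPKM in wild type (log2 4.24 ± 0.26, adjusted p = 0.0153, and log2 3.40 ± 0.28, adjusted p = 0.0393). For stage, 2 genes were called (0.015 percent), and 571 had an unadjusted p under 0.05. They were Zdhhc6, listed at 0 in both P1 intestinal libraries and at 15.8 and 21.5 FPKM in the P5 ones (log2 -4.18 ± 0.26, adjusted p = 0.0443), and Rab24, listed at 0 everywhere but the P5 intestinal libraries, with 19.9 and 16.8 (log2 -4.27 ± 0.27, adjusted p = 0.0443). An exact 0 beside such levels can be a failed estimate, which was not tested. Leaving out 1 library left 0 genes called for stage in all 8 cases, and 0 for genotype in 6. It gave 80 for genotype without the P1 percc1-/- stomach and 47 without the P5 percc1-/- stomach. Without the P1 percc1-/- libraries of both regions, 65 genes were called for genotype and 0 for stage. With each stage and genotype as a replicate block, limma called 0 for stage (552 at an unadjusted p under 0.05).

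Among genes outside the lists, Edf1 was listed at 0 in all 4 intestinal libraries and had 27.7, 23.8, 22.1 and 26.1 FPKM in stomach, and G630016D24Rik was listed at 0 in all 4 stomach libraries and had 23.8, 28.97, 35.8 and 32.2 in top intestine. Edf1 is a cofactor that most cells use. Outside the tested libraries it ranged from 0 to 35.4 FPKM in top intestine at P15 and from 0 to 32.5 in large bowel at P1 and P5. It had 27.0 to 28.3 FPKM in bottom stomach at P15, so the order of the regions did not hold there. The order held for G630016D24Rik. Whether the values of 0 are failed estimates was not tested, so these differences may not be regional. Of the 15 largest differences toward top intestine, several were genes of the enterocyte surface. Clec2e and Clec2h, C-type lectins of the gut epithelium, had 42.8 to 68.6 and 38.4 to 58.4 FPKM in top intestine and 0.204 to 10.7 and 0.534 to 11.6 in stomach (log2 difference -4.31 ± 0.59, adjusted p = 0.00225, and log2 difference -4.08 ± 0.60, adjusted p = 0.00298). These are close relatives, and the split of reads between them is uncertain. Btnl3, a butyrophilin-like protein, had 2.33, 0.082, 0.292 and 0.11 FPKM in stomach and 19.5, 30.9, 27.2 and 29.9 in top intestine (log2 difference -4.19 ± 0.38, adjusted p = 0.000506). Slc17a4, a transporter, Ms4a10, a membrane protein, and Gpr128, an adhesion receptor, had differences of -4.03, -4.03 and -3.996 (adjusted p = 0.0013, 0.00232 and 0.00197). All 6 were highest in the P1 percc1-/- library among the stomach libraries, and the regions did not overlap.

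The order of the regions was read in libraries that did not enter the tests, as a description: 2 libraries of bottom stomach and 2 of top intestine at P15. Levels outside the tested libraries were rescaled over a wider set of libraries, so their scale is not exactly that of the values above. The percc1-/- bottom stomach library had the largest factor (1.39), and its records with a symbol held 60.2 percent of its FPKM sum. Of 900 genes called higher in stomach by at least 1 on the log2 scale, 667 (74.1 percent) had both bottom stomach libraries above both intestinal ones. Of 845 called higher in top intestine by as much, 751 (88.9 percent) kept that order. Over all 13268 genes with values, these shares were 31.6 and 30.0 percent. The order held for 8 of 8 stomach factors, 9 of 9 parietal and chief cell genes, 31 of 34 squamous genes, 18 of 19 intestinal factors and 21 of 23 brush border genes. It held for 4 of 16 smooth muscle genes, 2 of 9 neuron and glia genes and 0 of 6 Hox genes. Rptn was at 8.32 to 16.6 FPKM in bottom stomach against 0.0723 to 0.0834 in top intestine. At P1 and P5 it had 0.0831 to 20.8 FPKM in 4 libraries of bottom intestine (median 0.483) and 0.0147 to 0.774 in 6 of large bowel. Krt1, Krt4 and Lgals7 also reached 20.1, 31.4 and 10.6 FPKM in bottom intestine, with medians of 0.383, 0.816 and 0.22. The cause of these high values was not tested.

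Single genes named above were read in the other libraries in the same way. Barx1 had 14.4 to 20.5 FPKM in bottom stomach at P15 and 0 to 0.0635 in top intestine, and Atp4a had 59.7 to 61.9 against 1.91 to 3.41. Cdx2 had 0.249 to 1.12 FPKM against 18.99 to 20.9, with 16.96 to 23.5 in 4 libraries of bottom intestine and 6.05 to 22.4 in 6 of large bowel at P1 and P5. Pdx1 had 7.48 to 9.09 FPKM in top intestine and 4.24 to 5.30 in bottom stomach at P15, and 0 to 1.12 in bottom intestine and 0 to 0.976 in large bowel. Hoxc8, higher in neonatal stomach than in top intestine, had 0.344 to 0.495 FPKM in bottom stomach at P15, and 0.41 to 5.01 in bottom intestine and 0.353 to 4.32 in large bowel at P1 and P5.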

How the data were processed

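Total RNA was depleted of ribosomal RNA and made into stranded libraries, per the labels' protocols. The authors deposited 1 table of FPKM per library; per the submitters' processing notes, TopHat2 2.0.13, SAMtools 0.1.18, Cufflinks 2.2.1 and mm9 were used, and no annotation version is given there. FPKM of records that share a symbol were summed, which left 21725 genes usable in all 8 libraries and 753 left out for a failed or merged record. Genes averaging at least 1 FPKM over the 8 libraries were kept. The libraries were rescaled by the median ratio over genes above 1 FPKM in all 8 (factors 0.891 to 1.10). Levels given for libraries outside the tests were rescaled in the same way, but over the tested and outside libraries together (factors 0.871 to 1.39). limma 3.58.1 in R 4.3.3, with trend and robust options and Benjamini-Hochberg adjustment over all genes, was fitted to log2(FPKM + 1) with 4 residual degrees of freedom (3 with an interaction). On simulated data with 200 changed genes, 73 percent of differences of 1 and 93 percent of differences of 2 on the log2 scale were recovered, and 5 unchanged genes were called. The changed genes were drawn only from those with a mean log2(FPKM + 1) above 3, and the noise was normal and independent between libraries. The recovery therefore does not cover genes at lower levels or libraries that stand apart. Python 3.11.15, pandas 2.3.3, numpy 2.4.6 and matplotlib 3.10.9 were used for tables and plots.

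The members and gene lists were chosen with earlier results of these data known. Named genes were the 15 largest called differences each way whose regions did not overlap, up to 4 called genes of each list, the tested transcription factors and hormones, and genes called for an interaction; genes chosen after their values were seen are named as such. Some genes that this rule names are not reported here. Gene positions are from GENCODE M1 (mm9). The promoter check used RefSeq promoters (GRCm38.p6) matched by symbol, and 10483 of the 13342 tested genes were matched.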

Additional observations from a re-analysis of the deposited data

Results flagged for a closer look

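A library was set apart where its distance to the nearest of the other 3 libraries of its region, as a share of the region's whole range, passed Dixon's critical value for 4 libraries. This held for 55 of 428 gene or list levels examined. Chance flags about 1 in 20 independent groups of 4 drawn without regard to their values. The levels here include genes singled out after their values were seen and the list sums that set the P1 percc1-/- libraries apart. They also vary together and mix stages and genotypes, so the count cannot be set against that rate. The P1 percc1-/- stomach library accounted for 23 and the P1 percc1-/- top intestine library for 18 of them. Values in brackets are FPKM. Cdx2 (4.30), Vdr (2.26), Ush1c (5.51), Mep1b (6.41), Slc7a9 (9.17), Slc26a3 (3.83), Slc3a1 (6.97), Mcoln3 (3.63), St6galnac1 (4.16), Pigr (4.03), Hoxc8 (8.70), Pgm5 (37.7), Clec2h (11.6), Btnl3 (2.33), Ms4a10 (7.98), the summed brush border genes (214) and the summed claudins (102) were set apart as the highest in the P1 percc1-/- stomach. Bhlha15 (1.38), Foxa3 (2.50), Gata4 (2.52), Pgc (21.8), Sult1c2 (4.80) and the summed parietal and chief cell genes (230) were set apart as the lowest in the P1 percc1-/- stomach. Il1f6 (0.251), Sox2 (0.833), Sox21 (1.84), Six2 (0.832), Atp4a (29.5), Atp4b (24.8), Gif (11.2), Cym (81.3), Muc5ac (3.49), Fabp6 (16.7), Bmpr1b (1.66), Kit (6.31), Cldn17 (0.0472) and the summed parietal and chief cell genes (317) were set apart as the highest in the P1 percc1-/- top intestine. Pck1 (54.8), St6galnac1 (9.45), Clca3 (21.4) and the summed leukocyte genes (68.1) were set apart as the lowest in the P1 percc1-/- top intestine. Unc50 (15.4), the summed genes of glucose and ketone making (300.1) and the summed liver genes (398) were set apart as the highest in the P5 percc1-/- stomach. Slc6a14 (1.62) was set apart as the lowest in the P5 percc1-/- stomach. Alb (1.80) was set apart as the highest in the P5 percc1-/- top intestine. Nkx6-3 (0.257), Tff2 (0.403), Muc6 (0.615) and Gkn3 (0.290) were set apart as the lowest in the P5 percc1-/- top intestine. S100b (2.12) was set apart as the highest in the P1 wild-type stomach. Zdhhc6 (10.4) was set apart as the lowest in the P1 wild-type stomach. Kcnma1 (3.40) was set apart as the lowest in the P1 wild-type top intestine. G6pc (50.2) was set apart as the highest in the P5 wild-type top intestine. Chgb (16.9) was set apart as the lowest in the P5 wild-type top intestine.

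In the main fit, the difference between the regions itself was called as differing between the genotypes for 2610528A11Rik (-3.25), Cck (3.18), Cps1 (3.27), Dnajc19 (-3.75), Gip (4.01), Prelid1 (-4.45), Rdbp (3.40), Slc6a14 (-3.39) and Unc50 (4.24). Each value is the region difference in percc1-/- minus that in wild type on the log2 scale. It was called as differing between the stages for Rab24 (-4.27) and Zdhhc6 (-4.18), at P5 minus P1. With each stage and genotype as a replicate block, 0 genes were called for genotype and 0 for stage. The stage calls also ended on leaving out any single library. Rab24, Zdhhc6, Prelid1, Dnajc19, Unc50 and Rdbp have values listed at 0 in some of the libraries.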

How the results depend on the processing

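Of 150 genes named in the text and called for region, 134 stayed called in the same direction under each of 6 changes: a pseudocount of 0.1, no filter on low values, no rescaling, scaling to the same sum, no trend or robust prior, and the largest record of a symbol. On leaving out each of the 8 libraries in turn, 120 did, while the counts were 1675 to 2248 genes higher in stomach and 1559 to 2022 higher in top intestine. Parts of the libraries gave fewer calls: 245 and 128 from the P1 libraries alone, 909 and 981 from the P5 libraries alone, and 0 and 0 by limma from the percc1-/- libraries alone, where 3278 genes had an unadjusted p under 0.05. With the wild-type libraries alone, 2041 and 1974 genes were called, Slc6a14 was higher in stomach (log2 difference 1.53, adjusted p = 0.00709) and Iapp in top intestine (-0.68, adjusted p = 0.0399), both against the sign over all 8 libraries; the cause was not tested. Without the P1 percc1-/- libraries of both regions, a choice made after seeing the data, 2240 and 2056 genes were called.

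The stage interaction, called for 2 genes, was called for 1 without a trend or robust prior and for 0 without the P1 percc1-/- libraries (548 at an unadjusted p under 0.05 in limma). The genotype interaction, called for 9 genes, was called for 15 with a pseudocount of 0.1, 14 with no filter and 65 without the P1 percc1-/- libraries. On leaving out 1 library, the stage interaction was called for 0 to 0 genes and the genotype interaction for 0 to 80; the cause was not tested. With each stage and genotype as a replicate block, 2266 genes were higher in stomach and 2079 in top intestine, and 0 were called by limma for stage (552 at an unadjusted p under 0.05) and 0 for genotype (888). The correlations of same-numbered stomach and top intestine libraries were 0.093, 0.174, 0.055 and 0.142, not all over 0.1. Each of the 4 stomach libraries correlated best with the intestinal library of its own number. Same-numbered libraries share stage and genotype, whose effects were not removed before the correlation. It therefore cannot show whether they share animals. The block ended the region calls of Isl1, Bhlha15, Foxq1, Cldn18, Sult1c2, Vsig1, Fzd5, Rnf43 and Prelid1 among the named genes.

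The tables hold no counts, so differences of genes under about 2 FPKM rest on bounds of 25.9 to 29.8 percent, and the labels do not say whether libraries share animals.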
